A study of Gasterosteus aculeatus with 60 samples.

Results

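The genes described here were those with the strongest excess of RNA in the diencephalon over the telencephalon of male threespined sticklebacks, small fish whose breeding males defend a nest. They were chosen from the control males: for each gene the median of log2(cpm + 1) over 15 control telencephalon libraries was subtracted from that over 15 control diencephalon libraries, where cpm is a gene's count scaled by the total of its library to a common library size, and the 200 genes with the highest difference were taken. A set of 18 of them, among them oxt, avp, foxa2, pax7a, pax7b and the irx genes, was left out by name, which left 182 members of 17536 genes. Of these, 78 carry a gene name and 104 only an Ensembl identifier. Names came from the study's own tables of genes that changed in these libraries and of transcription factors, so the named members are not a random draw: 42.9% of members have a name against 10.2% of all genes, and 48 members stand in the transcription factor table.

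The study took 30 territorial males of the freshwater Putah Creek population. Challenged males were shown a smaller, unrelated male confined to a flask, and control males an empty flask. Telencephalon and diencephalon were dissected from the same fish 30, 60 or 120 min after the flask was introduced, which gives 12 groups of 5 libraries, each library from a single fish. No other treatment or genotype separated the groups, and each time holds different fish.

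The diencephalon holds the hypothalamus, the thalamus and the habenula, and the telencephalon of a fish holds its pallium and subpallium. Brain regions are laid out in the embryo by transcription factors, many of which stay on in the neurons they specified, so that regulators of the homeobox, forkhead, GATA and POU families mark regions in adult brains as well. Other genes separate regions because a cell type is more common in one of them, as with cholinergic neurons, large projection neurons rich in neurofilaments, and the oligodendrocytes that make myelin. In bulk tissue, more cells of a type and more RNA per cell cannot be told apart.

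Library totals ran from 17705327 to 55299804 counts, with a median of 30159568. Lists of marker genes followed the labels: the summed cpm of 24 telencephalon markers had a median of 1901 in telencephalon and 381 in diencephalon, and 28 diencephalic transcription factors had a median of 853 in diencephalon and 372 in telencephalon. Transcripts listed for midbrain and the midbrain-hindbrain boundary had a median of 258 cpm in diencephalon and 11.7 in telencephalon. Of the diencephalic list 13 of 28 genes, and of the midbrain list 12 of 21, are members. The rule chose members as high in control diencephalon, so the sums of these lists are no independent check of the labels. Several telencephalon libraries stood apart in the members themselves. Their summed cpm was 8420 in challenged fish 38 (30 min), 7052 in control fish 12 (30 min), 5621 in control fish 15 (60 min), 4853 in challenged fish 9 (120 min) and 4086 in control fish 5 (30 min), against 1303 to 3108 in the other telencephalon libraries. Results in the telencephalon are therefore also given without the telencephalon libraries of fish 9, 12, 15 and 38, an alternative chosen after these values were seen.

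In control males the difference that chose the members ran from 2.25 to 7.39 on the log2 scale, with a median of 2.97, while the median over all genes was 0.02. This is a description, since the rule used these values. Of the members, 90 were at least 8-fold and 19 at least 16-fold higher by it. The median member had 33.0 cpm in control diencephalon and 2.42 in control telencephalon, and 64 members had under 1 cpm in telencephalon. Together the members took a median of 1.96% of the reads counted on genes in diencephalon and 0.194% in telencephalon. The named members just inside the limit were FOXB1 (2.27), slc1a3b (2.34), pde6g (2.35), mafb (2.37) and emx2 (2.37), and the first named genes outside it included pou3f2a (2.24), irx5b (2.22) and foxa1 (2.22), so the limit separates no distinct class. The member emx2 stood on the telencephalon marker list and yet had 24.0 cpm in control diencephalon and 3.81 in control telencephalon.

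**Figure D1:**
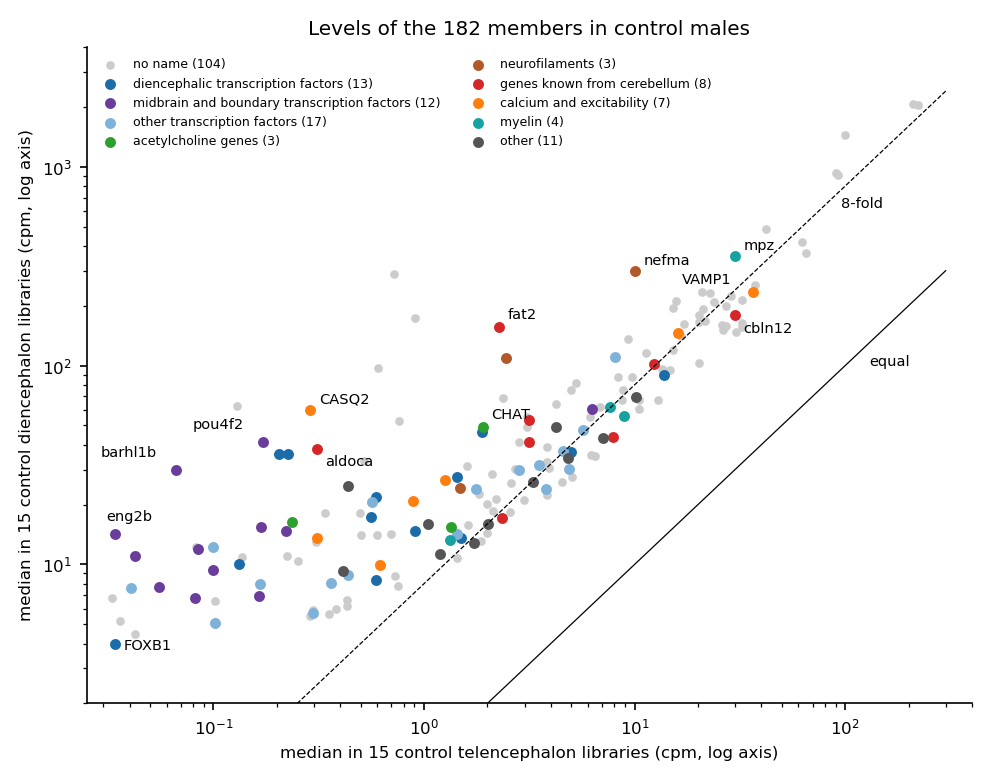
Median cpm of each member over 15 control telencephalon libraries (horizontal, log axis) against that over 15 control diencephalon libraries (vertical, log axis), coloured by group of named members, with lines at equal levels and at an 8-fold difference. All 182 points lie above the line of equal levels because the rule chose them so, at 3.98 to 2075 cpm in diencephalon.

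The challenged males were not used in the choice and so allow a test of the region difference. Genes were tested if they reached 1 cpm in 2 of the 30 challenged libraries of either region. Of the 182 members, 25 did so only through the diencephalon, where they are high, among them gsx1, shox2, eng2b, lmx1al, nr5a2, mafb and FOXB1, so that their calls follow from the filter and their fitted differences are descriptions. The other 157 reached this level in challenged telencephalon as well, and all 157 were higher in diencephalon in these 15 fish (edgeR quasi-likelihood test, Benjamini-Hochberg adjusted p below 0.1 over all genes), where 29.4% of all genes tested were called higher. Their log2 differences ran from 1.37 to 7.96 with a median of 2.97, which is 2.58-fold to 249-fold with a median of 7.82-fold, and the largest adjusted p was 0.0117 (timeless). In 150 of 182 members, and in 126 of those 157, every challenged diencephalon library lay above every challenged telencephalon library, against 7.39% of all genes. Compared within each fish, 166 of the 182 members were higher in diencephalon in all 15 challenged males, against 20.2% of genes. This comparison includes the 25 members that passed the filter only through the diencephalon, for which it is a description. Most of the exceptions failed in fish 38 (among them OTP, six6a, chgb, timeless and slc1a3b) or in fish 9 (pou4f1, SLC18A3 and scospondin). Of the telencephalon libraries set aside, only those of fish 9 and 38 are from challenged males. Without them the median log2 difference was 3.48 over all members, against 3.10 with them.

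The smallest p among named members belonged to genes of moderate level and small spread. TNC (2 of 2), a copy of the extracellular matrix protein tenascin C, had 28.4 cpm in the lowest, 35.9 in the median and 44.9 in the highest challenged diencephalon, and 4.18, 5.48 and 10.8 cpm in telencephalon. The difference was 2.53 ± 0.10 on the log2 scale (SE, n = 15 fish, edgeR quasi-likelihood adjusted p = 1.71e-17), and the regions did not overlap. The POU factor pou3f1 followed with 2.73 ± 0.11 and the AP-2 factor tfap2a with 2.97 ± 0.13.

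Transcription factors of the diencephalon made up 13 of the named members. Their log2 difference in challenged males ran from 2.55 ± 0.13 for lef1, the nuclear partner of beta-catenin in Wnt signalling, to 5.74 ± 0.25 for gsx1, a homeobox gene of the developing hypothalamus. The value of gsx1 is a description, since it passed the filter only through the diencephalon. The basic helix-loop-helix factors tal1 and tal2, which with the GATA factors drive the choice of inhibitory neurons in the mouse midbrain and thalamus, differed by 3.99 ± 0.25 and 5.42 ± 0.49, and gata2b by 4.50 ± 0.38. LHX1, a LIM homeobox factor, had the smallest spread of all named members over the 30 diencephalon libraries (SD 0.10 on the log2 scale), with 30.9, 35.9 and 38.5 cpm as its lowest, median and highest value in challenged males.

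A pair of hypothalamic regulators behaved differently in a single fish. OTP, needed for neuroendocrine neurons of the hypothalamus in mouse and zebrafish, had 15.3, 15.8, 19.8, 14.5 and 6.48 cpm in the diencephalon of the 5 challenged males at 30 min, and 1.86, 0.545, 1.89, 0.0624 and 14.1 cpm in their telencephalon. The last value of each is fish 38, the lowest diencephalon and the highest telencephalon of all 30 fish. The eye-field and hypothalamic factor six6a had 10.8, 6.39, 14.9, 9.88 and 5.28 cpm in the same diencephalon libraries and 0.207, 0.24, 0.0913, 0.0937 and 9.14 cpm in telencephalon, again with fish 38 last and its regions in reverse order. Summed over all 13 factors the diencephalon held 293 to 424 cpm and the telencephalon 15.8 to 105.

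Another set of 12 transcription factors is known from the midbrain and the midbrain-hindbrain boundary. Their log2 differences in challenged males ran from 2.97 ± 0.13 (tfap2a) to 7.15 ± 0.44 for shox2, a homeobox gene, with pou4f2 at 6.16 ± 0.57, barhl1b at 6.12 ± 0.60, eng2b at 6.51 ± 0.51 and lmx1al at 6.22 ± 0.38. The values of shox2, eng2b and lmx1al are descriptions, since these members passed the filter only through the diencephalon. pou4f2, a POU factor of retinal ganglion cells and tectal neurons, had 34.9, 42.9 and 51.5 cpm as its lowest, median and highest value in challenged diencephalon. In challenged telencephalon it had 0, 0.13 and 10.7 cpm, the highest in fish 9. Engrailed genes, which pattern the midbrain and cerebellum, varied more between diencephalon libraries: the SD was 0.47 for eng2b and 0.70 for EN1 (2 of 2). Unlike the diencephalic factors, whose median pairwise correlation over 30 diencephalon libraries was 0.49, the midbrain set had a value of 0.05. Libraries share their depth scaling and fish of the same group, so these are descriptions. The summed level of the midbrain set stayed within 196 to 274 cpm in diencephalon.

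Another 17 transcription factors were members. They included ebf3 and EBF1, early B-cell factors of differentiating neurons, prox1a, the nuclear receptors nr5a2 and rorb, and emx2, with log2 differences from 2.49 ± 0.14 (EBF1) to 5.61 ± 0.29 (nr5a2). The value of nr5a2 is a description, since it passed the filter only through the diencephalon.

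The 3 genes that make a neuron cholinergic were all members. CHAT (1 of 2) makes acetylcholine, SLC18A3 (1 of 2) loads it into vesicles and SLC5A7 (2 of 2) takes choline back up. CHAT and SLC18A3 lie next to each other on linkage group V (1052048 to 1059304 and 1049043 to 1050542 in the study's Ensembl release 75 annotation). CHAT (1 of 2) had 25.8, 42.9 and 57.0 cpm as its lowest, median and highest value in challenged diencephalon and 0.437, 1.55 and 14.9 in telencephalon, a log2 difference of 4.16 ± 0.33. SLC5A7 (2 of 2) differed by 5.36 ± 0.44 and SLC18A3 (1 of 2) by 3.10 ± 0.32, and only for the last did the regions overlap. In telencephalon the 3 genes moved together (median pairwise correlation 0.86 over 30 libraries, against 0.45 for all members). They were highest there in control fish 12, with 24.3, 22.5 and 5.42 cpm for CHAT, SLC18A3 and SLC5A7. In diencephalon that correlation was 0.16, against 0.11 for all members.

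The neurofilaments nefla, nefma and neflb, which set the calibre of large axons, were all members as well, and nefla and nefma are neighbours on linkage group XIV (8929320 to 8932047 and 8935776 to 8950786). nefma was among the highest named members, with 212, 260 and 336 cpm as its lowest, median and highest value in challenged diencephalon and 6.31, 9.28 and 121 cpm in telencephalon. The log2 difference was 3.87 ± 0.36 for nefma, 3.89 ± 0.48 for nefla and 3.19 ± 0.29 for neflb. The highest telencephalon value of all 3 was in fish 38, where nefla reached 99.4 cpm against 1.47 to 16.4 in the other challenged males.

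Of the 4 myelin genes, mpz, a major myelin protein of the fish central nervous system, had the highest level of any named member in control diencephalon, at 354 cpm. Challenged diencephalon held 254, 331 and 469 cpm and challenged telencephalon 13.4, 30.3 and 138 cpm as lowest, median and highest value, a log2 difference of 3.04 ± 0.28. The oligodendrocyte regulator myrf (2.64 ± 0.20), UGT8, which makes galactosylceramide for myelin (2.57 ± 0.18), and the homeobox factor nkx6.2 (3.05 ± 0.24) differed by similar amounts. In telencephalon the 4 rose and fell together (median pairwise correlation 0.93 over 30 libraries, against 0.45 for all members). mpz there was 187 cpm in fish 12, 138 in fish 38, 131 in fish 15, 99.9 in fish 9 and 89.5 in fish 5, and 13.4 to 52.3 in all others. The myelin list had 9 of its 10 genes called higher in challenged diencephalon (edgeR, against 29.4% of all genes). It holds 3 members, and 6 of the 7 genes that are no members were called.

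A group of 8 members best known from the cerebellum varied widely within the diencephalon. It was put together after these values were seen, from genes several of which, such as neurod, slc17a7 and slc1a3b, are also used elsewhere in the brain, so its correlation and its counts describe genes partly chosen for moving together. Its genes are fat2, a giant cadherin of granule cells, aldoca, the aldolase of Purkinje cells, cbln12 of the cerebellin family, grin2ca, an NMDA receptor subunit, grid2ipa, which binds the delta glutamate receptor of Purkinje cells, the vesicular glutamate transporter slc17a7, neurod, and the glial glutamate transporter slc1a3b. Their summed level ran from 251.8 to 2181 cpm over 30 diencephalon libraries with a median of 485, and their median pairwise correlation was 0.91, against 0.11 for all members. The highest sums were in control fish 3 (2181 cpm) and 33 (1990 cpm) and challenged fish 9 (1226 cpm). The diencephalic list moved with them in part: its 3 zic genes, which are no members and of which zic1 is also known from cerebellar granule cells in mouse, summed to 1055 cpm in fish 3, 1086 in fish 33 and 527 in fish 9, against a median of 430, while the rest of that list had 352, 427 and 332 cpm against 424. Transcripts listed for muscle summed to 108 cpm in fish 3 and 279 in fish 33, against a median of 25.8. Their part in the result was not tested. fat2 alone ran from 44.5 to 427 cpm, aldoca from 6.74 to 348 cpm, and CASQ2 (2 of 2), a calsequestrin that binds calcium in internal stores, from 5.84 to 272 cpm. The named members most like fat2 over the 30 diencephalon libraries were slc17a7 (r = 0.96), grin2ca (0.95), cbln12 (0.93) and neurod (0.93). Which cells carried these RNAs was not measured.

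**Figure D2:**
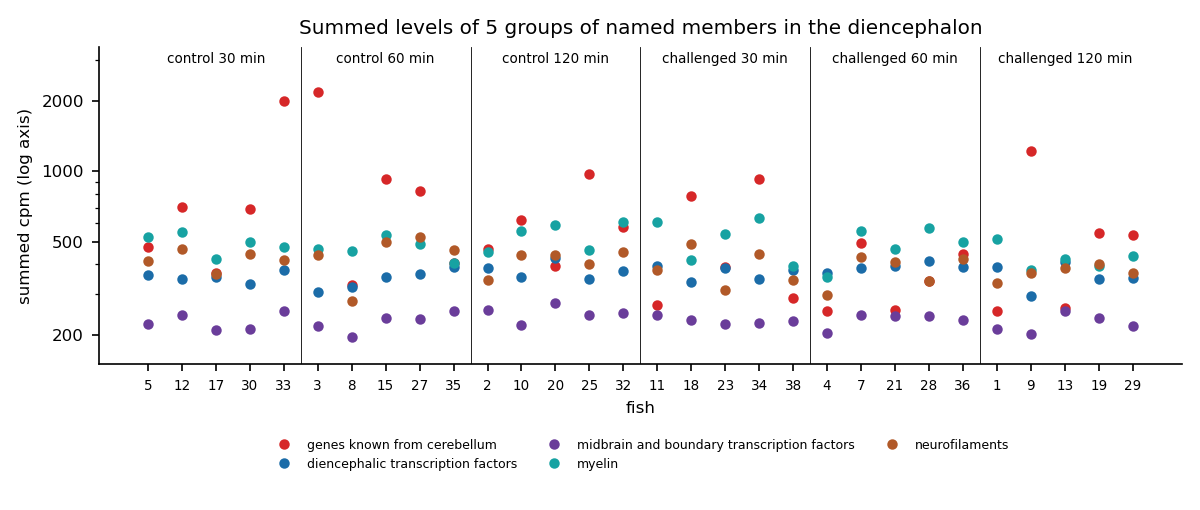
Summed cpm (log axis) of 5 groups of named members in the diencephalon of each of the 30 fish, ordered by treatment and time. The genes known from cerebellum span 251.8 to 2181 cpm, with fish 33, 3 and 9 highest, while the midbrain and boundary factors stay within 196 to 274 cpm.

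Synaptic and calcium genes among the members included VAMP1, a vesicle SNARE of fast-firing neurons, which was as steady as the transcription factors (SD 0.12, 196 to 266 cpm in challenged diencephalon), and pvalb6, a parvalbumin. In challenged males VAMP1 differed by 2.16 ± 0.15 between regions and pvalb6 by 2.71 ± 0.15. The sodium channel subunit scn4bb differed by 4.22 ± 0.41.

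Among the 104 members without a name, ENSGACG00000018017 had the largest control difference, with 288 cpm in control diencephalon and 0.72 in telencephalon. ENSGACG00000013566 was either low or high: it had under 3 cpm in 6 diencephalon libraries and over 25 in 23, from 0.341 to 129 cpm. A further 7 unnamed members followed it with a correlation over 0.8 across the 30 diencephalon libraries.

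The next question was whether a territorial challenge changed these genes. No member and no other gene was called in diencephalon or telencephalon at any time (0% of 17448 and 17247 genes tested; edgeR quasi-likelihood test, Benjamini-Hochberg adjusted over the 6 comparisons, smallest adjusted p among members 0.534). The 15 control fish also chose the members, so these tests are not independent of the rule. The rule took genes high in control diencephalon and low in control telencephalon. A lower level in challenged diencephalon or a higher level in challenged telencephalon is therefore favoured by the choice. The study itself reported genes changed by challenge at each time, with the same adjusted threshold. At that threshold it also listed genes of each region whose time course depended on challenge, and the telencephalon list includes members, among them pou4f2. Members named outside the transcription factor tables owe their names to the study's lists of changed genes. The study therefore called those members changed in at least 1 of its comparisons of these libraries. A term for time and challenge together within a region was not fitted here. The study used a generalized linear model of edgeR on tagwise dispersion. An edgeR likelihood ratio test on tagwise dispersion, tried here as an alternative, also called no member for challenge. The reason for the difference was not tested. Exact two-sided permutation tests of 27 named members in each region and time, 162 tests in all with a smallest possible p of 0.00794, gave 7 with a p below 0.05 and a smallest Benjamini-Hochberg value of 0.617, and challenged and control fish overlapped in all 162. Over 162 tests a single member at that smallest p could not reach 0.1 after adjustment, so the adjusted value cannot exclude a change. With DESeq2, fat2 was called at 120 min and stxbp1b and pde6g at 60 min in telencephalon, and no member in diencephalon. The share of all genes called by DESeq2 is not given here, so these calls are not read as particular to the members.

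In diencephalon at 60 min, 27 of 182 members had an unadjusted p below 0.05, against 10.5% of all genes. Of these, 26 were lower in challenged males, the direction favoured by the choice, against 6.61% of all genes. All 8 genes of the group known from cerebellum were among them, a description only, since these genes move together and were grouped after their values were seen. Their summed level was 251.97, 495, 254, 340 and 442 cpm in challenged fish 4, 7, 21, 28 and 36 and 2181, 327, 926, 821 and 405 cpm in control fish 3, 8, 15, 27 and 35, so the groups overlap and fish 3 stands far above the rest. slc17a7 had 26.5, 43.1, 29.5, 31.9 and 33.7 cpm in challenged and 158, 30.1, 71.6, 72.9 and 40.8 cpm in control fish, a log2 change of -1.20 ± 0.42 (edgeR quasi-likelihood adjusted p = 0.607). Without fish 3 it was -0.73, and only 9 members then had a p below 0.05. Leaving out control fish 8, whose diencephalon had 3202 cpm of the leukocyte list, gave 38. Here and below, counts with a fish or library left out stand without the share of all genes in the same fit. They describe only how the count of members moved. The small heat-shock protein cryaba had 35.4, 42.3, 40.1, 41.1 and 45.6 cpm in challenged and 51.2, 44.0, 54.3, 65.3 and 52.8 cpm in control fish, a change of -0.41 ± 0.14 (adjusted p = 0.570 by edgeR) with overlapping groups. The actin-binding protein nexn changed by -1.73 ± 0.60 (adjusted p = 0.602 by edgeR).

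At 30 min, 5 of 182 members had an unadjusted p below 0.05 in diencephalon, against 3.28% of all genes, and at 120 min 8 of 182, against 5.92%. With 1 fish left out these counts ran from 3 (without fish 11) to 11 (without fish 18) at 30 min and from 4 (without fish 10 or 20) to 12 (without fish 1) at 120 min. At 120 min the median member was lower by a small amount, -0.09 on the log2 scale, and 144 of 182 members were lower, against 8546 of 17448 genes. The choice of members by their control levels favours this direction, so the counts are a description. mpz had 374, 263, 290, 258 and 303 cpm in challenged fish 1, 9, 13, 19 and 29 and 316, 386, 414, 336 and 442 cpm in control fish, a change of -0.34 ± 0.14 (edgeR adjusted p = 0.679) with overlap, and UGT8 changed by -0.40 ± 0.17. TMPRSS5, a serine protease, was the only named member with a positive change and a p below 0.05 there (0.58 ± 0.19, edgeR adjusted p = 0.564).

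**Figure D3:**
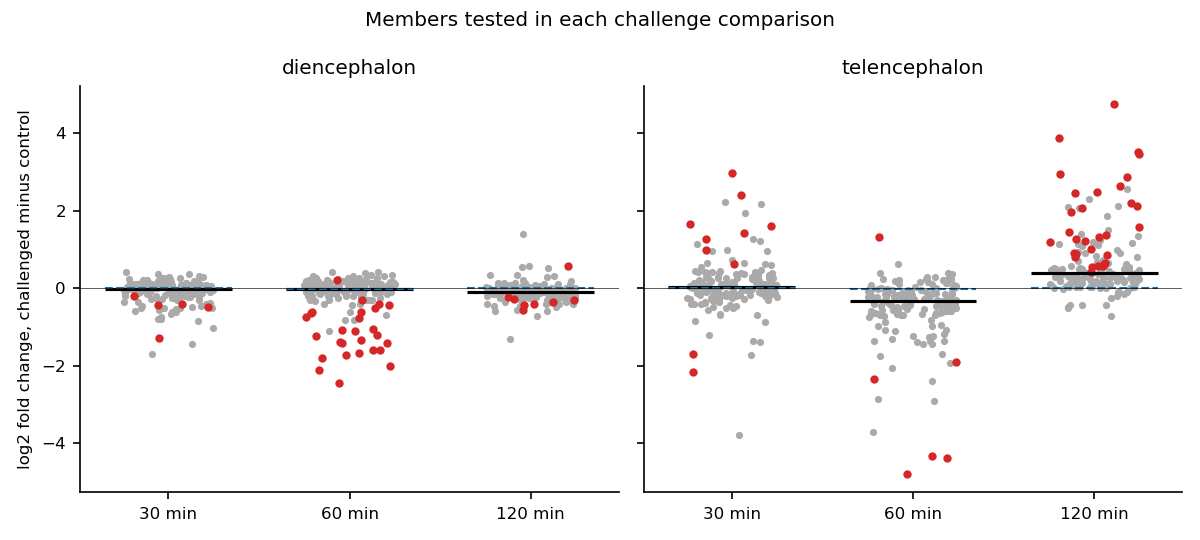
Log2 fold change (challenged minus control, edgeR) of each member tested, by region and time, with an unadjusted p below 0.05 in red, the median of the members as a black line and that of all genes as a dashed blue line. The diencephalon medians lie between -0.09 and -0.01, and the telencephalon medians are 0.04, -0.34 and 0.40 at 30, 60 and 120 min.

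Telencephalon results turned on single libraries. At 30 min, 10 of the 162 members that passed the filter of 1 cpm in 2 telencephalon libraries had a p below 0.05, against 4.14% of all genes. Leaving out control fish 12 gave 19 and moved the median change from 0.04 to 0.40, and leaving out challenged fish 38 moved that median to -0.52. timeless, a relative of the fly clock gene, had 6.61, 6.21, 4.72, 6.34 and 266 cpm in challenged fish 11, 18, 23, 34 and 38 and 7.14, 12.8, 4.13, 5.03 and 7.45 cpm in control fish. Only fish 38 was outside the range of the controls, and the log2 change of 2.98 ± 0.78 (edgeR adjusted p = 0.534) was -0.30 without that fish. The diencephalon of fish 38 had 18.2 cpm of timeless, near the lowest of all fish.

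At 60 min 6 of 162 members had a p below 0.05, against 12.3% of all genes, and with 1 fish left out the count ran from 1 (without fish 35) to 11 (without fish 3 or 8). pde6g, a subunit of the photoreceptor phosphodiesterase, had 0.286, 0.889, 0.265, 0.606 and 1.52 cpm in challenged fish and 1.05, 3.29, 6.04, 0.296 and 89.1 cpm in control fish 3, 8, 15, 27 and 35. Its log2 change of -4.79 ± 1.41 became -1.90 without fish 35, and that of stxbp1b, a syntaxin-binding protein, -1.94 in place of -4.33 ± 1.20. The photoreceptor marker list summed to 1566 cpm in that telencephalon library and at most 183 in any other, and to 3434 cpm in the diencephalon of the same fish. Its part in the result was not tested.

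At 120 min 31 of 162 members had a p below 0.05, against 3.98% of all genes, all of them higher in challenged males, against 2.5% of all genes, and the median change was 0.40. The choice of members as low in control telencephalon favours this direction, and members varied more there than all genes. The shares of all genes are therefore only background. fat2 had 14.6, 43.7, 1.5, 3.77 and 2.24 cpm in challenged fish 1, 9, 13, 19 and 29 and 1.38, 1.9, 3.39, 0.961 and 4.62 cpm in control fish, a log2 change of 2.45 ± 0.72 (edgeR adjusted p = 0.534). Fish 1 and 9 were above every control and the other 3 overlapped. The transcription factors tal2 and barhl1b were high in the same fish, and barhl1b had 3.98 and 6.24 cpm in fish 1 and 9 and at most 0.389 in the other 3. Leaving out fish 1 gave 14 members with a p below 0.05. Leaving out fish 9 gave 10 members with a p below 0.05, a median change of 0.03 and a change of 1.17 for fat2, and leaving out the 4 telencephalon libraries gave 8 of 144 members and a median of -0.003. In the other direction, the count rose to 43 without fish 29, with a median change of 0.56.

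**Figure D4:**
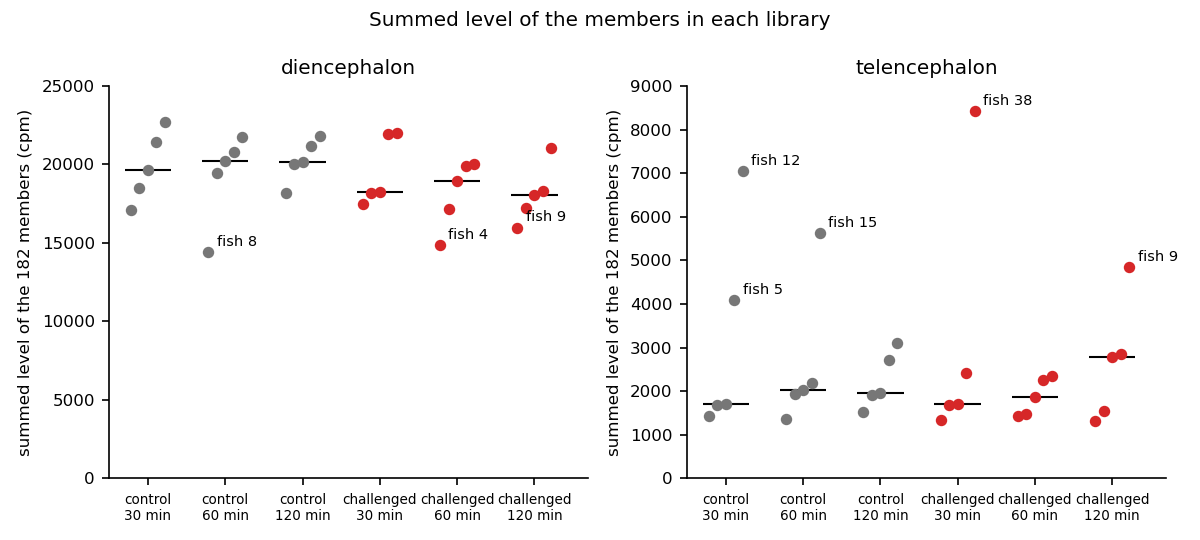
Summed level of the 182 members in each library (cpm, linear axis), by treatment (control grey, challenged red) and time, with the group median as a line. Telencephalon libraries of fish 38, 12, 15, 9 and 5 sit between 4086 and 8420 cpm, and the others between 1303 and 3108 cpm.

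The telencephalon libraries that stood apart shared many of their raised members but differed in others. Compared with the median of all telencephalon libraries, 125 members were more than 2-fold higher in fish 38, 123 in fish 9, 96 in fish 12, 79 in fish 15, 59 in fish 1 and 35 in fish 5, where 3.68%, 6.76%, 3.03%, 3%, 1.23% and 2.38% of all genes were. Fish 38 and 9 shared 96 of these members (76.8% and 78.0% of each). Of those raised in fish 12, 15, 1 and 5, 85.4%, 89.9%, 81.4% and 94.3% were also raised in fish 38, where 68.7% of all members were. Fish 1 overlapped less with some others: 52.5% of its raised members were raised in fish 12 and 42.4% in fish 15. The lowest overlap was that of fish 1 and 5, which shared 1 (1.69% and 2.86%). Fish 38 had the highest telencephalon value of timeless, nefla, nefma, OTP and six6a, fish 12 that of mpz and the 3 cholinergic genes, and fish 9 that of fat2, barhl1b, tal2 and pou4f2. In fish 1, aldoca had 8.79 cpm and CASQ2 (2 of 2) 7.87 cpm, against at most 1.43 and 1.61 in the rest, with mpz at 30.3 cpm, close to the median.

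Marker lists moved with some of these libraries. The telencephalon list summed to 1108 cpm in fish 38 and 1380 in fish 9, the lowest values of that region, against a median of 1901. It summed to 1567 in fish 5, 1709 in fish 12 and 1756 in fish 15. It was also low, at 1654, in control fish 25, whose members summed to 1950 cpm. The diencephalic list had 628 cpm in fish 12, 480 in fish 9, 440 in fish 15 and 410 in fish 1, against a median of 372. In fish 38 and 5 it was below that median, at 339 and 314 cpm. The midbrain list summed to 52.3 cpm in fish 9, 40.0 in fish 1, 36.6 in fish 38 and 32.5 in fish 12, against a median of 11.7. Fish 15 had 19.5 cpm of it and fish 5 had 11.4. Of the 21 genes of the midbrain list 12 are members, which alone summed to as much as 45.3 cpm in telencephalon. Its rise where the members were high is therefore partly built in. The leukocyte list summed to 2195 cpm in the telencephalon of fish 9, where the median was 339. Their part in the results was not tested. At the median member these libraries reached 23.0% (fish 38), 25.6% (fish 9) and 19.8% (fish 12) of the diencephalon level, against 8.52% for telencephalon libraries overall. In fish 9 the subcommissural organ protein scospondin had 17.0 cpm in telencephalon, where all other fish had 1.30 to 2.61, and 3.53 cpm in diencephalon, where all others had 10.7 to 26.0.

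**Figure D5:**
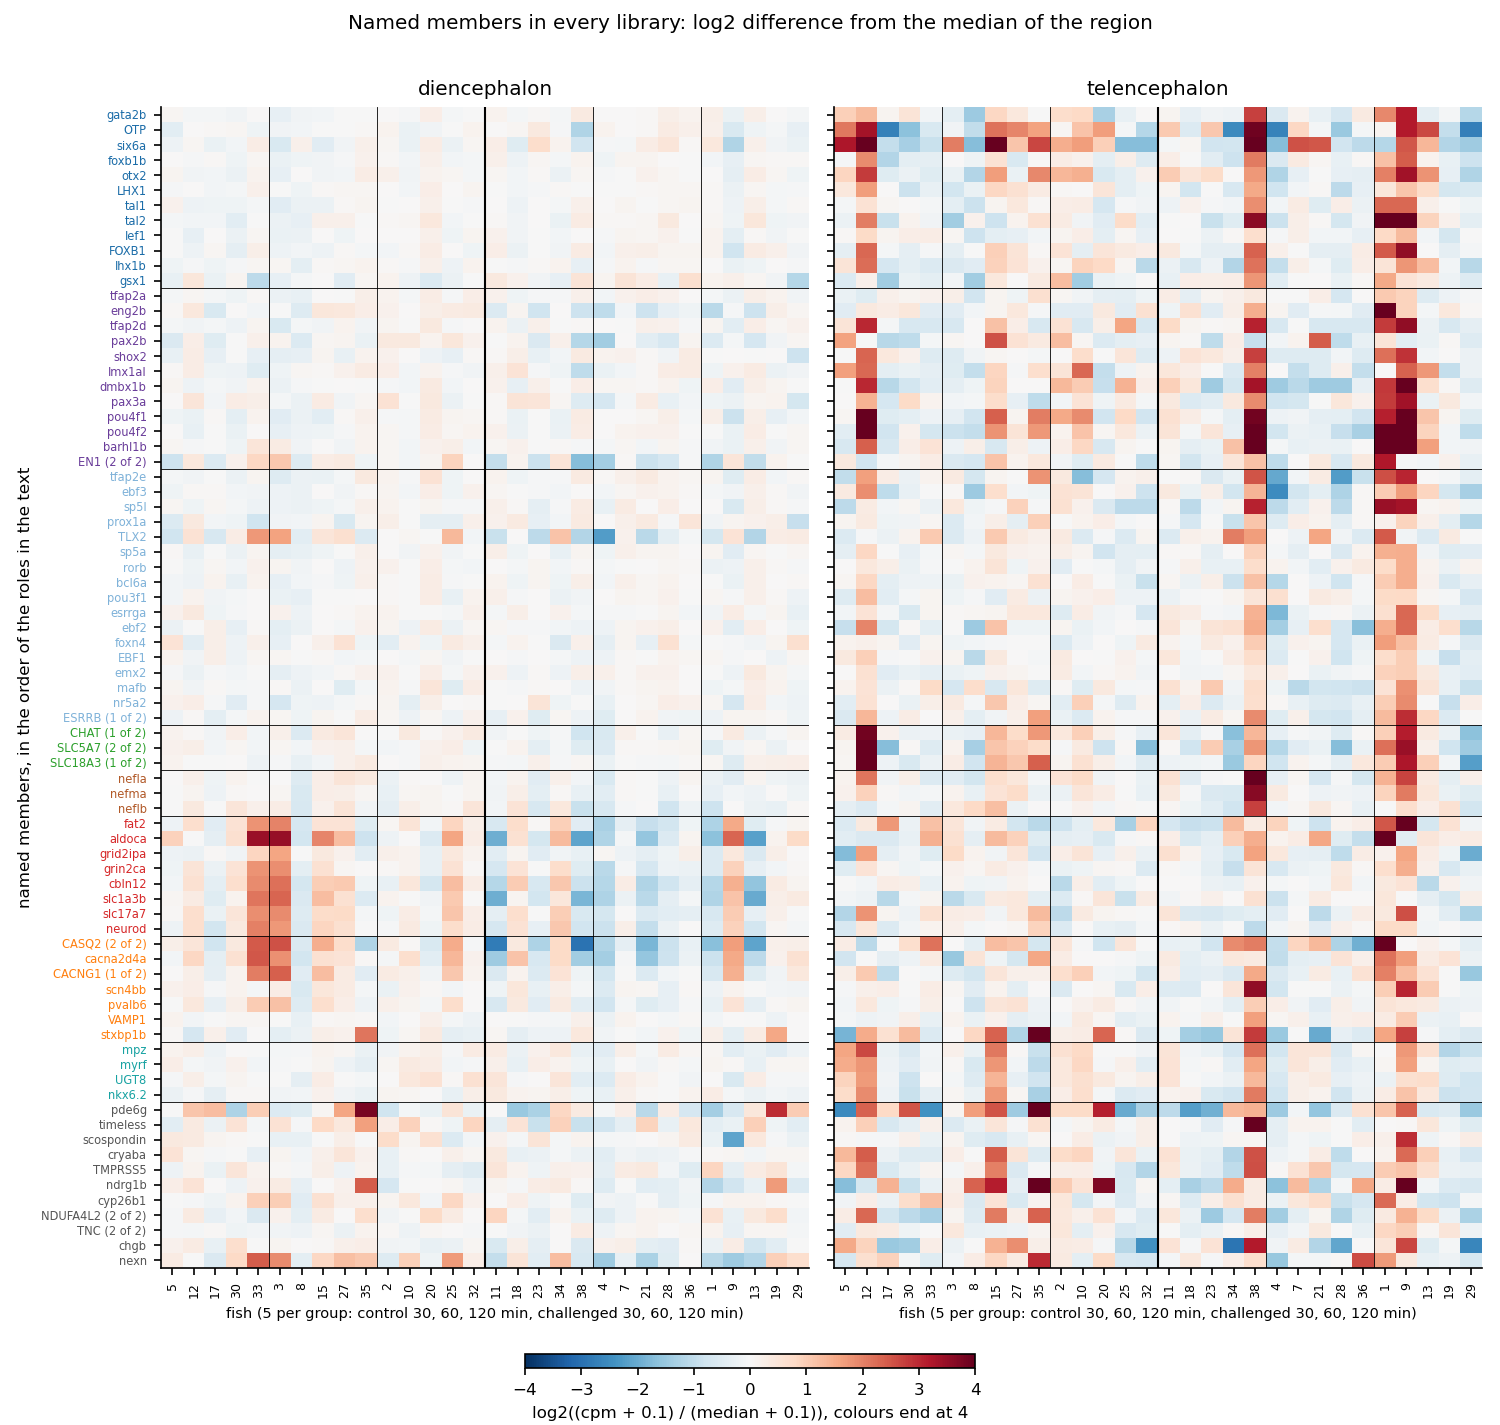
Level of each of 77 named members in each library of both regions as log2((cpm + 0.1) / (median of the region + 0.1)), with red above and blue below the median and colours ending at 4. In telencephalon, fish 38 stands out with timeless and nefla, fish 12 with CHAT (1 of 2), and fish 9 with fat2 and barhl1b, and in diencephalon fish 33 and 3 stand out with the genes known from cerebellum.

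Over time no member was called in either region or treatment, and of all genes 0.0058% in challenged telencephalon and 0% elsewhere (edgeR quasi-likelihood test of the 3 times jointly, Benjamini-Hochberg adjusted, smallest adjusted p among members 0.339). In challenged telencephalon 35 of 162 members had an unadjusted p below 0.05, against 5.94% of all genes, and timeless, scospondin and nefla had the smallest p. Without fish 9 there were 18, without fish 28 there were 23, without fish 29 there were 55, and without the 4 telencephalon libraries 11 of 144. In control telencephalon there were 4 of 162 (9.75% of all genes), in control diencephalon 7 of 182 (7.04%) and in challenged diencephalon 1 of 182 (5.98%). The edgeR likelihood ratio test called timeless, fat2 and nefla in challenged and ndrg1b in control telencephalon, and DESeq2 called fat2 in challenged telencephalon. The shares of all genes called by these other tests are not given here, so the calls are not read as particular to the members.

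Whether the excess in diencephalon itself changed with challenge was tested as an interaction over all 60 libraries. No member and no other gene was called (0% of 17536 genes; edgeR quasi-likelihood test, Benjamini-Hochberg adjusted over 3 comparisons), and DESeq2 called no member. The control libraries that chose the members for a large region difference enter this comparison, so a smaller difference in challenged males is favoured by the choice, and the shares over all genes are given only as background. Unadjusted p was below 0.05 for 14 of 182 members at 30 min (1.28% of all genes), 10 at 60 min (3.32%) and 34 at 120 min (1.45%), and at 120 min all 34 had a smaller difference between regions in challenged males, against 0.627% of all genes, with a median change of -0.47 over all members. Of these, 2, 3 and 6 were among the 20 members that did not pass the filter in telencephalon. Among the latter, eng2b had the smallest p at 120 min, which rests on a single library, with 2.64 cpm in the telencephalon of fish 1 and at most 0.281 in any other fish. At 30 min the count was 28 without fish 12, with a median of -0.47, and 24 without fish 38, with a median of 0.43, against -0.04 with all fish. At 60 min the count was 6 without fish 28. The median over all members at 60 min was 0.33 with all fish, a larger difference between regions in challenged males. Without fish 1 the count at 120 min was 20. Without fish 9 it was 17 and the median -0.11, and without the 4 telencephalon libraries 18 and -0.12. In the other direction, the count at 120 min rose to 49 without fish 29, with a median of -0.65. With the fish as a block for its paired regions, 5, 6 and 19 members had a p below 0.05 at 30, 60 and 120 min. The shares of all genes in this blocked fit are not given here, so these counts are not read as particular to the members. Within fish, the median member was higher in diencephalon by 1.69 (fish 9) and 1.85 (fish 38) on the log2 scale at the lowest, both challenged, by 2.41 in control fish 12, and the medians of the 6 groups lay between 3.02 and 3.64.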

How the data were processed

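Poly-A RNA of the diencephalon and telencephalon of 30 fish was sequenced by the authors with a strand-specific kit. The deposited values are raw counts of reads per gene, which the authors made with TopHat2 2.0.8 and HTSeq 0.6.1 after base calling with CASAVA 1.8.2, per the submitters' processing notes and the study's methods, and reads that fell in several genes were dropped there, which can lower the counts of near-identical gene copies. The build in those notes bears the name of a mouse assembly, while the methods give the stickleback genome of Ensembl release 75, whose gene identifiers the table holds. No stickleback sequence was used here.

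Groups came from the sample labels. Levels are cpm of the column sums, and log2 cpm used a prior count of 2. The members, gene lists and tests were chosen with earlier results of these data known. Genes reaching 1 cpm in 2 or more of the fitted libraries were tested on raw counts with TMM scaling and the quasi-likelihood test of edgeR 4.0.16 in R 4.3.3: region in the 30 challenged libraries, with 1 mean per region and time, and challenge and time within each region. The Benjamini-Hochberg adjustment ran over all genes and all comparisons of a kind at once, and 0.1 was the threshold, as in the study's methods. Values given as ± are standard errors of the fitted log2 difference. Exact permutation tests used log2 cpm. Single libraries were compared with the median of their region over all 182 members. On simulated counts with 200 changed genes, 91 of 100 genes with a log2 change of 1 were recovered in the region test, 71 in diencephalon and 76 in telencephalon at 60 min, and 67 in the interaction. The changed genes were drawn from all genes tested, and the challenge simulations were adjusted within 1 region. Members varied more in telencephalon, with a median SD of log2 cpm of 0.817 against 0.202 for all genes tested. The recovery of members was therefore not measured.

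The members named in the text are the named genes that were among the 30 highest, in a gene list, among the 3 smallest p-values of a comparison, next to the limit of 200, among the 5 highest in diencephalon, or among the 5 most or least variable there. Other named members were added to describe groups after their values were seen, and the groups of named members were also formed then. Of 182 members, 162 passed the filter in telencephalon. The values of 1 named member are not reported here, though it counts in the totals and summed levels of its groups.

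The regions of a fish are paired by the fish number in the labels. Over 17168 genes the deviations of its diencephalon and telencephalon from their group means correlated at 0.264 to 0.770 (median 0.606), above 0.1 in 30 of 30 fish. No pair of libraries within a group agreed within sampling noise. Within a region each library is 1 fish, so the p-values of challenge and time measure the spread between fish. The region test and the interaction treated the paired libraries of a fish as independent, except with the fish block. DESeq2 1.42.0, a likelihood ratio test, other scalings, filters and thresholds, a fish block and leaving out each fish were tried as alternatives. Figures were drawn with matplotlib 3.10.9 from tables made with Python 3.11.15.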

Additional observations from a re-analysis of the deposited data

Results flagged for a closer look

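The summed level and the median shift of the members were each examined in the 12 groups of 5 libraries for a library set apart from the others. Of these 24 sets of values, 6 held such a library, where the nominal rate for a single set is about 1 in 20. Both measures come from the same libraries, and fish 38 is counted under each, so the 24 sets are not independent. The count is therefore a description. In telencephalon the summed level of the members was 8420 cpm in challenged fish 38 at 30 min, with the next highest of its group at 2417 cpm, and 5621 cpm in control fish 15 at 60 min, with the next at 2197 cpm. The median shift of the members from the median of the region was 1.62 on the log2 scale in the telencephalon of fish 38. In diencephalon that shift was -0.28 in challenged fish 4 at 60 min, -0.26 in control fish 8 at 60 min and -0.23 in challenged fish 9 at 120 min, the lowest of their groups. The leukocyte list summed to 3202 cpm in the diencephalon of fish 8 and 2052 cpm in that of fish 9, against a median of 291 cpm, and its part in these shifts was not tested.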

How the results depend on the processing

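The 182 members, 25 of which passed the filter only through the diencephalon, were called higher in diencephalon in challenged males with each fish left out in turn (182 to 182), and the median stayed between 3.03 and 3.35. DESeq2 called 170, as it gave no adjusted p for the other 12. The counts of members called for challenge, time and interaction were 0 with each fish left out (0 to 0) and under every alternative except 5: DESeq2 called 1 member at 120 min and 2 at 60 min for challenge in telencephalon, and 1 over time in challenged telencephalon, while the edgeR likelihood ratio test called 3 over time in challenged and 1 in control telencephalon. The cause was not tested, and the shares of all genes called under these alternatives are not given here. No direction of a called value reversed. The replicate block, with each fish's regions paired, called 182 members in the region comparison with a median of 3.28 and 0 members in the interaction, and changed no call. Taking means in place of medians, TMM library sizes or a pseudocount of 0.1 in the rule kept 174, 179 and 134 of the 182 members. Low telencephalon levels limit precision: 64 members had under 1 cpm there in control males.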

Other observations

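Members outside the group known from cerebellum followed it across the 30 diencephalon libraries. The calcium channel subunits cacna2d4a and CACNG1 (1 of 2) and the parvalbumin pvalb6 correlated with fat2 at 0.93, 0.90 and 0.92, about as closely as aldoca (0.89). In telencephalon the named member most like fat2 was rorb, at 0.67. The clock-gene relative timeless was most like nefla in both regions, at 0.71 in diencephalon and 0.81 in telencephalon. All these are values of Pearson's r over 30 libraries of log2 cpm, in telencephalon with fish 38 and 9 included, and the libraries share depth scaling and, in part, a group.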
